A study of Mus musculus with 9 samples.

Results

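The difference that remained between mouse embryonic stem cells 4.5 h after auxin was washed out (Reintroduction) and cells that were mock-treated (Mock) was measured by RNA sequencing. It rests on all 3 Reintroduction and all 3 Mock libraries, 6 of the 9 libraries in the series, and on the 20838 of 48440 genes with enough counts to be tested. Every library came from J1 cells of the genotype Suz12-AID, so the Mock cells carry the degron-tagged Suz12 as well. The cells were grown on gelatin in serum medium with LIF and the inhibitors PD0325901 and CHIR99021 (2i). Auxin libraries had 50 µM indole-3-acetic acid for 96 h, and the Reintroduction libraries come from the washout that lasted 4.5 h. RNA was purified in triplicate for each group; the labels name no clone or batch and do not say whether the 3 came from separate cultures, so the p-values measure the spread between these libraries, which may be technical. The 3 Auxin libraries are shown to place the Reintroduction level relative to the Auxin and the Mock level. They were also part of the same fit, so they enter its filter, scaling and estimate of spread. They further define which genes count as moved in Auxin. The question is which functions were still off their Mock level, which had come back to it, and which lay past it.

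Polycomb repressive complex 2 (PRC2), of which Suz12 is an essential part, methylates lysine 27 of histone H3 and helps to keep developmental genes silent in stem cells. An auxin-inducible degron leads to destruction of the tagged protein while auxin is present, and the protein can build up again once auxin is removed. The integrated stress response raises ATF4 and its targets, among them amino acid transporters, amino acid synthesis enzymes and tRNA synthetases. Sterol synthesis genes are driven by SREBP factors when cell sterol is low, and heat shock and endoplasmic reticulum (ER) chaperones are raised when proteins fold poorly.

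Library totals ranged from 44341283 to 113931419 counts, in which each mate of a pair counts. Values are given as CPM, counts scaled to library size with TMM factors, and a difference given without a unit is a log2 fold change of Reintroduction against Mock unless another group is named. The log2 CPM values of a Mock and a Reintroduction library correlated across genes at 0.956 to 0.965, and libraries within either group at 0.992 to 0.994, where genes are not independent replicates. Mitochondrial genes took 4.58% to 4.80% of counts in the Reintroduction libraries and 3.79% to 4.0% in the others. The Mock libraries also differed from the rest in the relation of CPM to gene length. For each doubling of length, the change in log2 CPM was -0.24, -0.17 and -0.18 in Mock and 0.08, 0.10 and 0.09 in Reintroduction. In the Auxin libraries it was 0.15, 0.01 and 0.15. For each 10% of GC content it was 0.263, 0.154 and 0.157 in Mock and -0.164, -0.185 and -0.13 in Reintroduction. Auxin had -0.093, 0.138 and -0.14, so Auxin library 2 was closer to Mock than to the other Auxin libraries. The median log2 change of protein-coding genes from Mock to Reintroduction ran from -0.43 in the tenth of genes with the shortest exon length (median 1274 bp) to 0.59 in the tenth with the longest (median 11950 bp). Because the trend moves with the groups, most list medians below are followed by the value after per-library trends of length and GC content were removed; the part the trend plays was not tested. That removal moved the median log2 change of all tested genes from 0.03 to 0.16, and scaling by total counts moved it to 0.16.

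**Figure D1:**
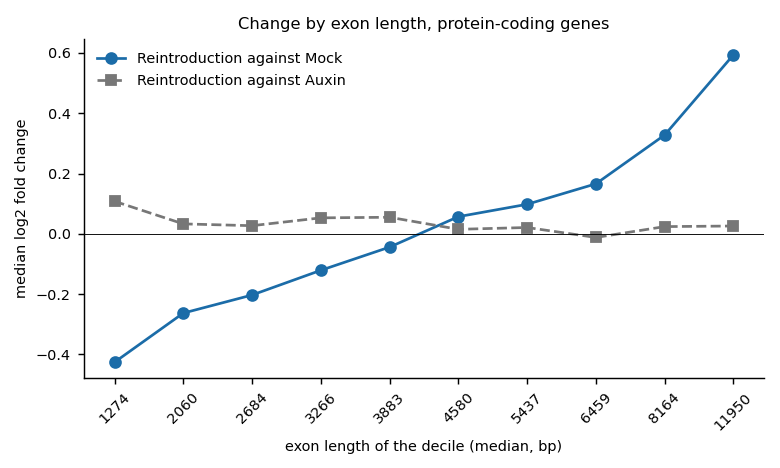
Median log2 fold change of protein-coding genes (y axis) in 10 groups of increasing exon length (x axis, median length of the group in bp). Reintroduction against Mock (circles) climbs from -0.43 to 0.59, while Reintroduction against Auxin (squares) stays between -0.01 and 0.11.

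The cells kept the marker genes of embryonic stem cells. All 10 stem cell markers were tested, with 1 higher and 6 lower, and their summed level, in counts scaled to library totals without TMM factors as for all marker sums here, was 5138 to 5233 CPM in Mock and 4738 to 4827 CPM in Reintroduction. Markers of other cell types were low but not equal. Fibroblast markers (4 of 8 tested, 1 higher and 2 lower) summed to 20.6 to 22.3 CPM in Mock and 41.5 to 42.6 CPM in Reintroduction. For primitive endoderm markers (6 of 6 tested, 3 higher and 1 lower) the sums were 5.24 to 6.79 and 14.0 to 15.8 CPM. For trophoblast markers (4 of 5 tested, 3 higher and 1 lower) they were 33.7 to 35.2 and 67.5 to 71.1 CPM, and Eomes alone made up most of them. Neuron markers (4 of 5 tested, 1 higher and 2 lower) went the other way, with 298.2 to 316.4 CPM in Mock and 211.2 to 221.3 CPM in Reintroduction, and blood cell markers (1 of 3 tested, which was lower) summed to 5.81 to 6.78 CPM in Mock and 2.48 to 3.06 CPM in Reintroduction. A neuron marker and a blood marker were at 0 in every library. In bulk libraries, more cells of a type and more RNA per cell cannot be told apart.

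Most of the transcriptome was not at the Mock level. Of the genes tested, 14191 (68.1%) were called at an adjusted p under 0.05 (edgeR quasi-likelihood test, Benjamini-Hochberg over all tested genes), 7225 higher (34.7% of those tested) and 6966 lower (33.4%) in Reintroduction. The split depends on the scaling: 8570 were higher and 5736 lower with total counts, and 8533 and 5488 with length and GC trends removed. With a change of at least 2-fold required as well, 3116 were higher (15.0%) and 1548 lower (7.43%). The counts of members in each list below are read against these shares. To sort the genes by where they stood, those that had moved at least 2-fold in Auxin (6625 genes, 31.8% of those tested) were followed; 73.2% of tested genes were called there without that size. After washout, those whose 95% interval lay within 0.5 log2 units of Mock were set apart first, called or not. They are named near Mock and were 296 (4.47% of those moved). Of the rest, 5238 (79.1% of those moved) were still called on the Auxin side of Mock and are named off. A further 92 (1.39%) were called on the opposite side and are named beyond Mock, and 999 (15.1%) were undecided. Counts of moved list members in each state below are read against these shares. Of all tested genes, 4.16% were at least 2-fold higher and 6.82% at least 2-fold lower in Reintroduction than in Auxin by the same test. Both contrasts with Mock use the Mock libraries, so these shares describe the libraries and are not tests.

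Genes named off had a median log2 difference from Mock of 1.44 where they had been higher in Auxin (3197 genes) and of -1.04 where they had been lower (2041 genes). With length and GC trends removed, 3073 of the former remained called higher and 1741 of the latter remained called lower. Among genes beyond Mock, 41 had been lower in Auxin and now lay above Mock by a median of 0.76, and 51 had been higher and now lay below it with a median of -0.89 on the log2 scale. With trends removed, 38 of those 41 remained called higher and 31 of those 51 remained called lower.

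**Figure D2:**
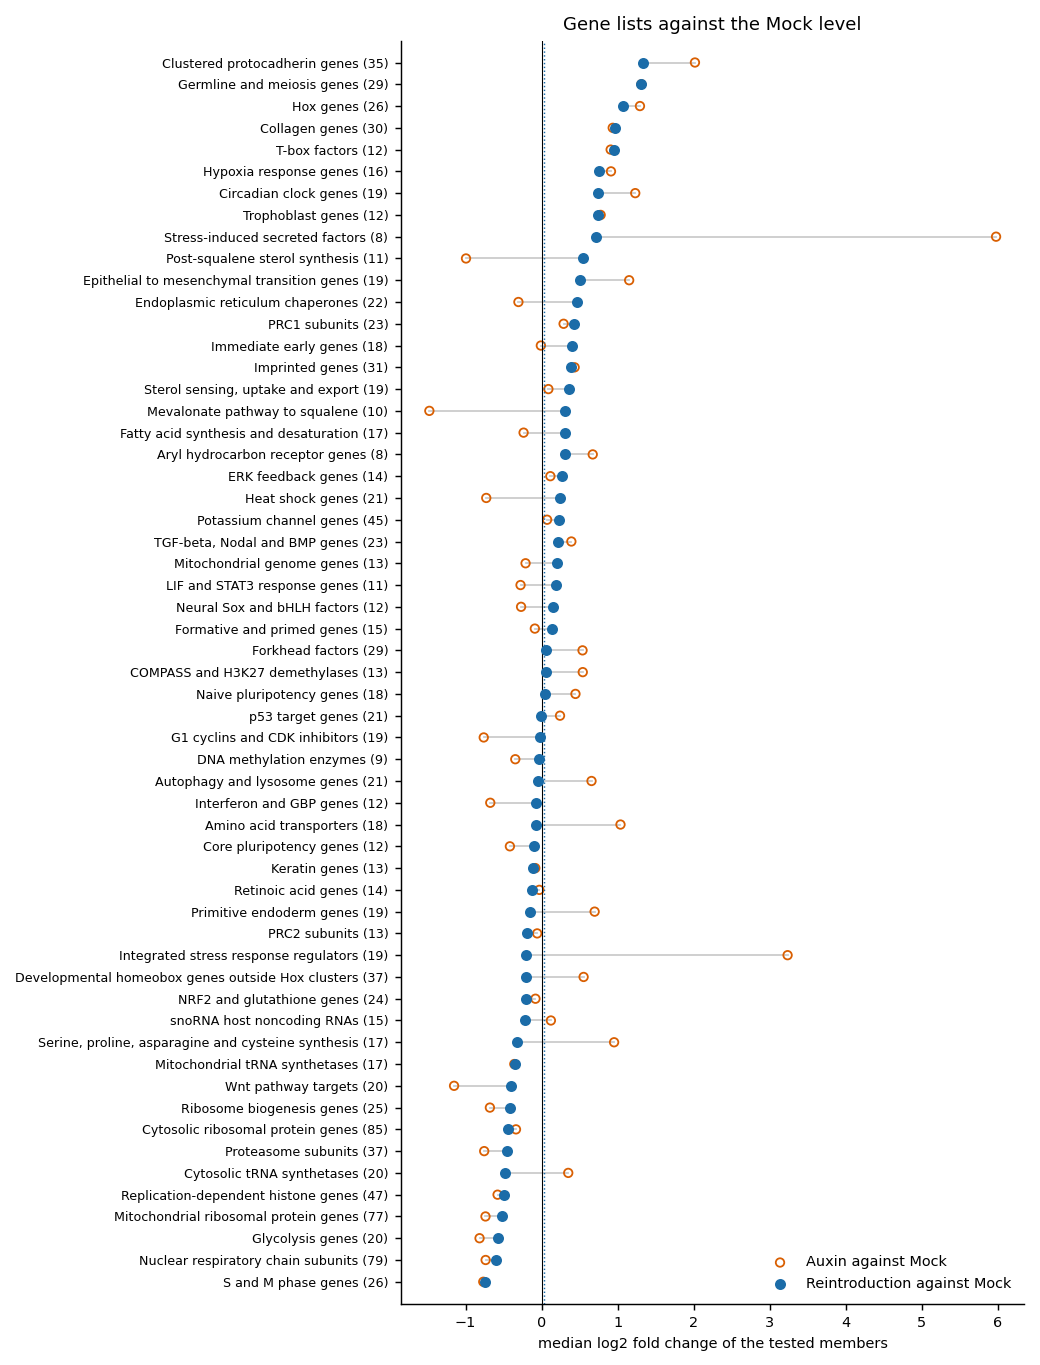
Median log2 fold change against Mock (x axis) of the tested members of each gene list with at least 7 of them (y axis, number tested in parentheses), for Auxin (hollow) and Reintroduction (filled); the dotted line is the median of all tested genes in Reintroduction, 0.03. Of the Reintroduction medians, those of protocadherin, germline and Hox genes lie furthest above Mock and that of S and M phase genes furthest below it, and the mevalonate, post-squalene and ER chaperone lists are below Mock in Auxin and above it in Reintroduction.

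Genes of the Polycomb complexes stood on both sides of Mock. Of 13 PRC2 subunit genes, 4 were higher and 6 lower by the test, and their median log2 change was -0.20 (-0.14 with trends removed). Suz12 had 126, 136 and 138 CPM in the Mock libraries, 149.8, 122 and 152 in the Auxin libraries and 166, 173 and 164 in the Reintroduction libraries, so its mRNA, which the degron does not target, was above every Mock library in all 3 Reintroduction libraries (log2 difference 0.33, SE 0.080, edgeR adjusted p = 0.00341; 0.06 with trends removed, a value that was not called). Jarid2, which helps to bring PRC2 to chromatin, was higher by 0.82 (SE 0.055), and Aebp2, an accessory subunit, by 0.79 (0.14 with trends removed). Eed, which binds methylated histone H3, was lower at -0.54 (SE 0.046), the histone-binding subunit Rbbp4 at -0.56, and Epop at -0.48 (-0.15 with trends removed). The catalytic subunit Ezh2 was lower at -0.24, Rbbp7 at -0.20 and Phf19 at -0.73, and Ezh1 was higher by 0.12, all on the log2 scale. With trends removed Rbbp7 (-0.14) and Ezh1 (0.01) were not called, Ezh2 lost its call with total counts, Rbbp7 without Reintroduction replicate 3 (-0.18), and Ezh1 with any 1 library left out (0.083 to 0.127). Mtf2 (0.21), Phf1 (-0.01) and AU022751 (-0.43) did not pass. With trends removed, Mtf2 was called lower (-0.35) and Phf1 was called higher (0.35). Among those 13 genes, 6 share exon sequence with another gene, Suz12, Ezh2, Eed, Rbbp4, Rbbp7 and Mtf2, and the counting used no strand.

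PRC1, the second Polycomb complex, which ubiquitinates histone H2A and compacts chromatin, had 12 of 23 subunit genes higher and 7 lower (median 0.42, 0.45 with trends removed). Auts2, a partner of a variant PRC1, was higher by 1.07 (0.51 with trends removed), Bmi1 by 1.55 and Cbx8 by 1.55 on the log2 scale. All 5 PRC1 genes that had moved in Auxin were off, against 79.1% of all moved genes. The DNA methylation enzymes split as well, 4 higher and 4 lower of 9 (median -0.03). With trends removed 2 were higher and 5 lower, and the median was -0.47. Uhrf1 had 536, 518 and 520.3 CPM in the Mock libraries, 126, 146 and 125 in the Auxin libraries and 221, 229 and 227 in the Reintroduction libraries. Uhrf1, which brings the maintenance methyltransferase to replicated DNA, was thus 2.33-fold below Mock (log2 -1.22, SE 0.064, edgeR adjusted p = 5.52e-08), and Dnmt1, that methyltransferase, was lower at -0.69 on the log2 scale. Kmt2c, a histone H3 lysine 4 methyltransferase, was higher by 2.15 (1.46 with trends removed) and Dpy30, a shared COMPASS subunit, lower at -0.79; the whole list had 5 of 13 in each direction, and its median of 0.06 turned to -0.155 with the length trend alone removed.

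Among moved developmental genes the share still off was near that of all moved genes. Across 10 lists of developmental genes, 207 different genes were tested, of which 99 had not moved and 108 had moved in Auxin; of those 108, 90 (83.3%) were off, 2 (1.85%) beyond, 16 (14.8%) undecided and 0 near Mock. The shares among all moved genes were 79.1%, 1.39%, 15.1% and 4.47%. Hox genes, which set position along the body axis, had 18 of 26 tested members higher and 1, Hoxd13, lower, with a median of 1.06 (1.42 with trends removed). Hoxb9 had 5.22, 5.46 and 5.22 CPM in the Mock libraries, 15.6, 15.2 and 14.6 in the Auxin libraries and 16.6, 15 and 16.1 in the Reintroduction libraries. Its Reintroduction libraries overlapped those of Auxin and lay 3.01-fold above Mock (log2 1.59, SE 0.066, edgeR adjusted p = 1.20e-08), and Hoxc11 was 2.76-fold above Mock and above its Auxin level (log2 0.79 between them, adjusted p = 2.64e-05). Hoxd9 stood at 4.23, against 5.25 in Auxin. That is the highest value among the undecided genes, which were not called against Mock. Hoxb4 was higher by 1.76, against 2.80 in Auxin.

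Homeobox genes outside the Hox clusters stood on both sides of Mock, 8 higher and 14 lower of 37 (median -0.21, which turned to 0.08 with trends removed). Meis2 (ENSMUSG00000027210.20; mm10 chromosome 2, 115863064 to 116065839), a partner of Hox proteins, was a member that stayed up. Meis2 had 2.48, 2.92 and 2.13 CPM in the Mock libraries, 40.0, 35.2 and 38.2 in the Auxin libraries and 38.5, 39.1 and 38.5 in the Reintroduction libraries. Every Reintroduction library lay within the Auxin range and their level was 15.4-fold that of Mock (log2 3.94, SE 0.10, edgeR adjusted p = 9.28e-10; 3.34 with trends removed; Reintroduction against Auxin 0.03, adjusted p = 0.776). Gbx2, a homeobox gene that also answers to LIF, stayed down: Gbx2 had 21.7, 20.6 and 21.2 CPM in the Mock libraries, 3.55, 3.48 and 3.08 in the Auxin libraries and 9.76, 9.18 and 10.8 in the Reintroduction libraries. It had covered part of the way from Auxin (log2 1.56, adjusted p = 1.04e-07) and was still 2.13-fold below Mock (log2 -1.09, edgeR adjusted p = 4.58e-07). Gsx2 and Gata6 were the 2 developmental genes beyond Mock, at -2.83 and -1.06, and both were under 1 CPM in every library; with trends removed Gata6 was not called (-0.79).

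T-box factors, which direct mesoderm and limb programmes, had 7 of 12 higher and 3 lower (median 0.95, 1.16 with trends removed). Tbx18 had 0.942, 1 and 0.839 CPM in the Mock libraries, 9.89, 8.28 and 8.75 in the Auxin libraries and 11.4, 11.5 and 10.3 in the Reintroduction libraries. Tbx18 was 11.9-fold above Mock (log2 3.57, SE 0.11, edgeR adjusted p = 2.20e-09) and Tbx15 was 8.47-fold above it (log2 3.08). Forkhead factors split 10 higher and 11 lower of 29, and their median of 0.06 changed sign under 4 alternatives; Foxi3 was higher by 1.67. Foxn4 stood at 4.75, 4.61 and 4.52 CPM in Mock, then 3.19, 3.32 and 3.05 in Auxin and then 0.539, 0.557 and 0.466 in Reintroduction, and so was 8.94-fold below Mock (log2 -3.16, SE 0.12, edgeR adjusted p = 6.12e-09) against a change of -0.54 in Auxin. Of the neural Sox and bHLH factors 4 of 12 were higher and 2 lower, with Sox21 higher by 2.11 and Sox3 lower at -3.23.

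Of the extraembryonic lineages, trophoblast genes were mostly higher and primitive endoderm genes were divided. Trophoblast genes had 8 of 12 higher and 3 lower (median 0.74, 0.96 with trends removed). Their 7 moved genes were all off, as were 8 of 11 in the primitive endoderm list, against 79.1% of all moved genes. Eomes had 35.9, 34.5 and 35.8 CPM in the Mock libraries, 25.4, 26.9 and 24.6 in the Auxin libraries and 66.2, 68.8 and 65.8 in the Reintroduction libraries. Eomes, a trophoblast and endoderm factor, was thus lower in Auxin and 1.89-fold above Mock after washout (log2 0.92, SE 0.053, edgeR adjusted p = 9.76e-08), and Tfap2a was higher by 1.45. Eomes also makes up most of the trophoblast marker sums given above, so those sums are not a separate measurement of it. The part of the markers in the result was not tested. Of 19 primitive endoderm genes 7 were higher and 6 lower; the endocytic adaptor Dab2 was higher by 1.28 and the activin antagonist Fst lower at -1.35, and the list's median of -0.16 changed sign under 3 alternatives.

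Germline and meiosis genes stayed high. Of 29 tested, 22 were higher and 2 lower (median 1.30, 1.10 with trends removed). All 21 that had moved in Auxin were off, against 79.1% of all moved genes. Taf7l had 0.534, 0.785 and 0.657 CPM in the Mock libraries, 19.8, 18.4 and 20.1 in the Auxin libraries and 11.2, 12.6 and 11 in the Reintroduction libraries. Taf7l, a germ cell form of a general transcription factor subunit (ENSMUSG00000009596.9; mm10 chromosome X, 134460118 to 134476490), had come down from the Auxin level (log2 -0.74, adjusted p = 5.40e-05) and stayed 17.8-fold above Mock (log2 4.15, SE 0.12, edgeR adjusted p = 1.88e-09). The piRNA pathway gene Piwil2 had 21.1, 21.1 and 21.1 CPM in Reintroduction against 8.93, 9.6 and 9.11 in Mock, a 2.29-fold difference. Sycp3, a protein of the meiotic chromosome axis, was higher by 2.63, and the germ cell helicase gene Ddx4 by 1.30. Imprinted genes, expressed from 1 parental copy, had 17 of 31 higher and 8 lower (median 0.39, 0.29 with trends removed). Grb10, a growth inhibitor, was 5.05-fold above Mock (log2 2.33, SE 0.058, edgeR adjusted p = 9.28e-10) at 209.5, 215 and 227 CPM, and Peg10, a retrotransposon-derived gene, was 3.53-fold above it and higher than in Auxin (log2 1.06, adjusted p = 4.80e-07). Cdkn1c and H19 were lower at -2.47 and -2.05.

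Over all genes, the largest rises among genes whose 3 libraries did not overlap between the groups (75.2% of those tested) and that reached 5 CPM were in Hhip, Parm1, Aspa, S100a1, Alcam and Nr2f2. Hhip had 0.573, 1.07 and 0.923 CPM in the Mock libraries, 89.3, 59.4 and 92.3 in the Auxin libraries and 24.4, 25.4 and 23.2 in the Reintroduction libraries. Hhip, an antagonist of Hedgehog signals, remained 28.8-fold above Mock (log2 4.85, SE 0.22, edgeR adjusted p = 2.18e-08), although it had come down from Auxin (log2 -1.73, adjusted p = 8.88e-06). Parm1 had 0.835, 1.18 and 0.993 CPM in the Mock libraries, 14.8, 13 and 12.8 in the Auxin libraries and 25.2, 24.2 and 25.7 in the Reintroduction libraries. Parm1, a mucin-like membrane protein, was thus 25.1-fold above Mock (edgeR adjusted p = 9.28e-10) and above every Auxin library. Aspa was 24.1-fold, the calcium-binding protein gene S100a1 22.1-fold (log2 4.47, 5.15 with trends removed), the adhesion molecule gene Alcam 20.2-fold and the nuclear receptor gene Nr2f2 18.5-fold above Mock.

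The largest falls by the same rule included Lefty1, Pou2f3, Wdr86, Gm10522 and Apol6. Lefty1 had 45.9, 36.1 and 32.8 CPM in the Mock libraries, 6.53, 8.34 and 6.09 in the Auxin libraries and 3.36, 2.32 and 2.77 in the Reintroduction libraries. Lefty1, an inhibitor of Nodal signals, went further down after washout (log2 -1.29 against Auxin, adjusted p = 9.76e-05), to 13.4-fold below Mock (log2 -3.74, SE 0.17, edgeR adjusted p = 2.39e-08). Pou2f3 had 27.8, 26.4 and 27.1 CPM in the Mock libraries, 0.646, 1.01 and 0.876 in the Auxin libraries and 2.11, 1.49 and 2.78 in the Reintroduction libraries. Pou2f3, a POU-domain factor of tuft cells, was 12.4-fold below Mock. Wdr86, Gm10522 and Apol6 were 11.2-fold, 9.94-fold and 9.13-fold below it.

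**Figure D3:**
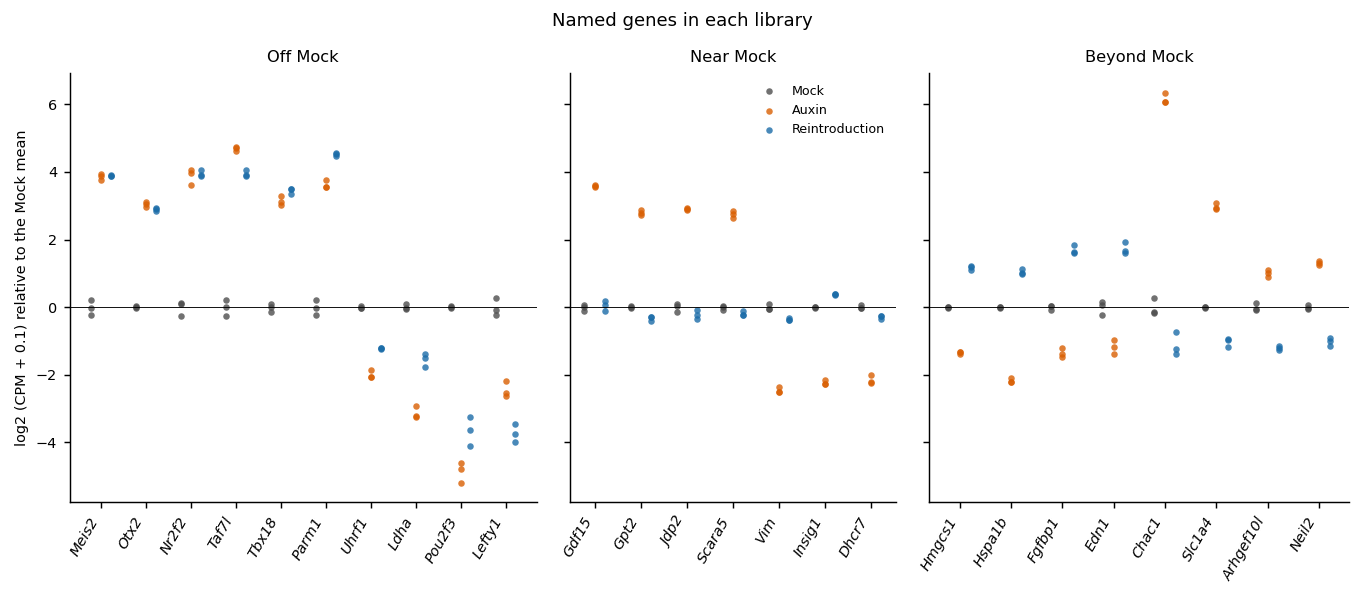
Log2 of CPM plus 0.1 relative to the mean of the 3 Mock libraries (y axis) for named genes (x axis) that were off, near or beyond Mock; each point is a library. Off genes have Reintroduction points on the Auxin side of 0, near genes have them close to 0, and beyond genes have them on the opposite side of 0 from Auxin.

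The genes of the stem cell state had medians near 0. Naive pluripotency genes had 8 of 18 higher and 5 lower with a median of 0.05 (0.20 with trends removed), and core pluripotency genes had 2 of 12 higher and 5 lower with a median of -0.10 (0.02 with trends removed). Sox2 had 376, 365 and 382 CPM in the Mock libraries, 761, 751 and 737 in the Auxin libraries and 451, 459 and 447 in the Reintroduction libraries; Sox2, a core pluripotency factor, was near Mock with a remaining 0.27 (SE 0.047). The naive factor gene Klf5 (0.26) and the chromatin factor gene Utf1 were near Mock too. Nanog had 997, 1051 and 993 CPM in the Mock libraries, 1148, 1243 and 1074 in the Auxin libraries and 899, 881 and 889.9 in the Reintroduction libraries, a difference of -0.19 (edgeR adjusted p = 0.018) for this naive factor that was not called with trends removed. Pou5f1, which encodes Oct4, was lower at -0.55 (-0.16 with trends removed), and Lin28a, an RNA-binding protein, at -0.80. Prdm14, a naive-state regulator, was 2.62-fold above Mock with 90.7, 84.7 and 92.3 CPM, and Manba, a lysosomal mannosidase carried in this list, 2.58-fold below it. Tcf3 (ENSMUSG00000020167.14, mm10 chromosome 10, 80409514 to 80433647), the bHLH factor gene of that symbol, was lower at -0.56. Otx2 had 5.97, 5.92 and 6.11 CPM in the Mock libraries, 50.9, 53 and 47.9 in the Auxin libraries and 46.6, 43.5 and 45.8 in the Reintroduction libraries. Otx2, a factor of the formative state that follows the naive one, was 7.56-fold above Mock (log2 2.92, SE 0.061, edgeR adjusted p = 5.41e-10), and Zic2 was 1.98-fold above it, while the list of formative and primed genes as a whole had 6 of 15 higher and 5 lower.

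Signalling lists were mixed. Wnt targets had 6 of 20 higher and 10 lower (median -0.40, -0.15 with trends removed); Axin2 and Tcf7 were near Mock at -0.32 and -0.11, whereas Lgr5 and Dkk1 stayed lower at -2.35 and -1.44, and the receptor gene Fzd7 and the secreted antagonist gene Sfrp1 were higher by 1.04 and 1.00. Of 18 immediate early genes 10 were higher and 5 lower (median 0.40, 0.69 with trends removed). Fosl2 had 0.563, 0.555 and 0.56 CPM in the Mock libraries, 8.21, 8.52 and 7.27 in the Auxin libraries and 6, 5.7 and 5.62 in the Reintroduction libraries. Fosl2, an AP-1 subunit, was 10.3-fold above Mock (edgeR adjusted p = 2.58e-09). Myc had 72.3, 66 and 63.2 CPM in the Mock libraries, 6.34, 7.18 and 7.1 in the Auxin libraries and 24.6, 23.8 and 28.2 in the Reintroduction libraries. Myc, a driver of growth genes, had regained part of its level (log2 1.90 against Auxin, adjusted p = 2.86e-08) and was 2.63-fold below Mock (edgeR adjusted p = 1.11e-07). Feedback genes of the ERK pathway were higher in 8 of 14 and lower in 5, with the phosphatase gene Dusp4 higher by 1.86 and Spred3 by 1.40. TGF-beta, Nodal and BMP genes were higher in 11 of 23 and lower in 8, with the activin subunit gene Inhbb higher by 1.77.

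Retinoic acid genes (4 of 14 higher, 5 lower) had the binding protein gene Crabp1 lower at -3.07 (-2.40 with trends removed), and their median changed sign under 3 alternatives. LIF and STAT3 response genes were higher in 5 of 11 and lower in 5, and their median also changed sign between alternatives, with the kinase gene Pim1 lower at -0.78. Of the interferon and GBP genes 3 of 12 were higher and 5 lower, with Bst2, which tethers virus particles, lower at -2.16 (-1.48 with trends removed) and Oas1a at -0.97. Aryl hydrocarbon receptor genes were higher in 4 of 8 and lower in 2; the receptor gene Ahr itself was higher by 1.48 and Aldh3a1 lower at -3.09.

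Genes of growth and biosynthesis were lower than in Mock as whole lists. Nuclear-encoded respiratory chain subunits had 65 of 79 members lower and 3 higher (median -0.60), mitochondrial ribosomal proteins 71 of 77 lower and 0 higher (median -0.52), cytosolic ribosomal proteins 68 of 85 lower and 0 higher (median -0.44), proteasome subunits 31 of 37 lower and 0 higher (median -0.46) and ribosome biogenesis genes 20 of 25 lower and 1 higher (median -0.41). Among all tested genes 33.4% were lower. At an unadjusted p under 0.05 in edgeR, 1 mitochondrial ribosomal protein gene and 0 genes of the cytosolic ribosome and the proteasome were higher, and DESeq2 called 0 in each. The first 4 of these lists hold short genes, with median exon lengths of 1381, 2064, 1631 and 2370 bp against 2916 bp over all tested genes. With length and GC trends removed, their medians were -0.27, -0.30, -0.10 and -0.25, with 49, 52, 34 and 27 members lower and 10, 7, 17 and 0 higher, while ribosome biogenesis genes, whose median length is 3634 bp, kept -0.36 with 21 lower and 1 higher.

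Members of these lists had the following values. Ndufb10 had 92.7, 81 and 89.5 CPM in the Mock libraries, 30.1, 37 and 33 in the Auxin libraries and 38.9, 37.4 and 39.3 in the Reintroduction libraries. Ndufb10, a complex I subunit, was 2.28-fold below Mock (log2 -1.19, SE 0.079, edgeR adjusted p = 2.80e-07; -0.64 with trends removed). The mitochondrial ribosomal protein genes Mrps12 and Mrpl24 were lower at -1.31 (-0.71 with trends removed) and -0.94, and the ribosomal protein genes Rpl13a and Rpl39l at -1.11 and -2.91. Psmb10, a subunit of the immunoproteasome, went from 36.9, 32.5 and 30.8 CPM in Mock to 7.5, 7.55 and 7.45 in Reintroduction, 4.46-fold lower (edgeR adjusted p = 2.53e-08), and Psmd13 was lower at -0.85. Nolc1, a nucleolar chaperone, and Ubtf, the factor that starts ribosomal DNA transcription, were lower at -0.93 and -0.73. Cox6a2, a muscle form of a complex IV subunit, was an exception in the other direction, with 1 count over the Mock libraries and 255 over the Reintroduction libraries, a depth-scaled ratio of 319 with an exact 95% interval of 56.7 to 12643 that covers counting error only. It shares exon sequence with another gene. The 13 genes of the mitochondrial genome were higher in 5 and lower in 1, with mt-Nd5 higher by 0.71 and mt-Nd4l by 0.68, in the libraries that also had the larger mitochondrial share. Host genes of small nucleolar RNAs were lower in 8 of 15 and higher in 4, with Epb41l4aos and Snhg12 lower at -1.23 (-0.55 with trends removed) and -0.58. Histone genes that are expressed in S phase were lower in 10 of 47, higher in 1 and not called in 36, where 33.4% of all tested genes were lower. These libraries were selected for polyadenylated RNA, which limits what they show of histone transcripts. Hist1h2af was among the lower at -1.43 (-0.79 with trends removed), with means of 1.29 CPM in Mock and 0.49 CPM in Reintroduction. The median of the histone list, -0.50, became 0.10 with trends removed, where 7 members were called higher and 1 lower.

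Genes of DNA replication and division were lower. S and M phase genes were lower in 22 of 26 and higher in 2 (median -0.75, -0.61 with trends removed). All 7 that had moved in Auxin were off, against 79.1% of all moved genes. Rrm2 had 362, 346 and 349 CPM in the Mock libraries, 86.9, 99.1 and 87.3 in the Auxin libraries and 182, 189 and 177 in the Reintroduction libraries. Rrm2, a subunit of the enzyme that makes deoxynucleotides, had come up from Auxin (log2 1.00, adjusted p = 2.68e-07) and was 1.93-fold below Mock (log2 -0.95, SE 0.061, edgeR adjusted p = 2.27e-07), with Rrm1 lower at -0.94. Mcm2, part of the replicative helicase, was lower at -0.83 and Ccnb1, the mitotic cyclin B1, at -0.96. Mki67 and Cenpe, the 2 members that were higher (0.92 and 0.94), had uneven Auxin libraries, Mki67 with 187, 108 and 231 CPM there and 347, 317 and 273 CPM in Reintroduction, and Cenpe was not called with trends removed (0.48). Among G1 cyclins and CDK inhibitors 6 of 19 were higher and 9 lower. Ccnd1 had 153, 164 and 159 CPM in the Mock libraries, 19.7, 21.1 and 19.4 in the Auxin libraries and 88.1, 91.2 and 91.9 in the Reintroduction libraries. Ccnd1, cyclin D1, was 1.76-fold below Mock after a rise of 2.17 from Auxin (adjusted p = 6.33e-10), and Ccne1, cyclin E1, 2.36-fold below it.

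Glycolysis genes were lower in 12 of 20 and higher in 5 (median -0.57, -0.35 with trends removed). All 10 moved members were off, against 79.1% of all moved genes. Ldha had 679.8, 627 and 620.0 CPM in the Mock libraries, 67.2, 84.4 and 68.7 in the Auxin libraries and 244, 225 and 187 in the Reintroduction libraries. Ldha, which turns pyruvate into lactate, had regained part of its level (log2 1.57 against Auxin, adjusted p = 6.69e-07) and was 2.94-fold below Mock (log2 -1.55, SE 0.11, edgeR adjusted p = 3.92e-07). Pfkm, phosphofructokinase, was lower at -1.14, Pgk1 at -1.13 and Gapdh at -1.03, while the glucose transporter genes Slc2a3 and Slc2a1 were higher by 0.80 and 0.66. Hypoxia response genes were mostly higher, 10 of 16 against 2 lower (median 0.76, 0.71 with trends removed). Vegfa had 2.13, 2.31 and 2.46 CPM in the Mock libraries, 131, 112 and 137 in the Auxin libraries and 25, 22.4 and 19.1 in the Reintroduction libraries. Vegfa, the vascular growth factor, had come down from Auxin (log2 -2.51, adjusted p = 1.71e-08) and was still 9.68-fold above Mock (log2 3.27, SE 0.12, edgeR adjusted p = 5.70e-09). Egln1, an oxygen-sensing hydroxylase, was higher by 1.30.

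Circadian clock genes were higher in 14 of 19 and lower in 2 (median 0.74, 0.47 with trends removed). Of 12 moved members 11 were off, against 79.1% of all moved genes. Per2 had 2.04, 2.34 and 2.49 CPM in the Mock libraries, 13.3, 13.1 and 12.8 in the Auxin libraries and 7.32, 7.11 and 7.44 in the Reintroduction libraries. Per2, a repressor of the clock loop, was 3.2-fold above Mock (log2 1.68, SE 0.085, edgeR adjusted p = 4.36e-08) and Bhlhe40, another repressor, 3.48-fold above it. Nr1d1 was lower at -0.99. The groups' times of harvest are not given in the labels.

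Among cell surface and matrix genes, protocadherins and collagens stayed high. Clustered protocadherins, adhesion molecules of neurons, had 25 of 35 higher and 1 lower (median 1.33, 1.39 with trends removed), with 24 of 29 moved members off and 5 undecided. Pcdhga8 had 0.243, 0.338 and 0.266 CPM in Mock, then 8.51, 7.19 and 7.59 in Auxin and then 1.84, 2.14 and 2.38 in Reintroduction, 7.52-fold above Mock, and Pcdhb22 was 7.65-fold above it; 24 of the 35 share exon sequence with another gene. Collagen genes had 17 of 30 higher and 6 lower (median 0.96, 0.91 with trends removed), with Col11a1 higher by 3.23 and Col5a1 by 1.35, and beside them the fibroblast marker sum was higher, with 1 marker called higher and 2 lower. Col1a1, which is in both lists, was lower at -0.73. Genes of the epithelial to mesenchymal transition were higher in 11 of 19 and lower in 2, with Esrp1, a splicing factor of epithelia, 4.53-fold and the tight junction gene Cldn7 4.08-fold above Mock. Krt18 had 4.14, 3.08 and 4.03 CPM in the Mock libraries, 12.9, 14.5 and 12.8 in the Auxin libraries and 21.4, 21 and 22.4 in the Reintroduction libraries. Krt18, a keratin of simple epithelia, lay above every Auxin library and 5.75-fold above Mock (log2 2.52, SE 0.11, edgeR adjusted p = 1.23e-08), with its partner Krt8 3.42-fold above it. The keratins as a list had 5 of 13 higher and 4 lower, and potassium channel genes 16 of 45 higher and 12 lower, with Kcnt2 and Kcnc2 higher by 3.97 (3.21 with trends removed) and 2.97.

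**Figure D4:**
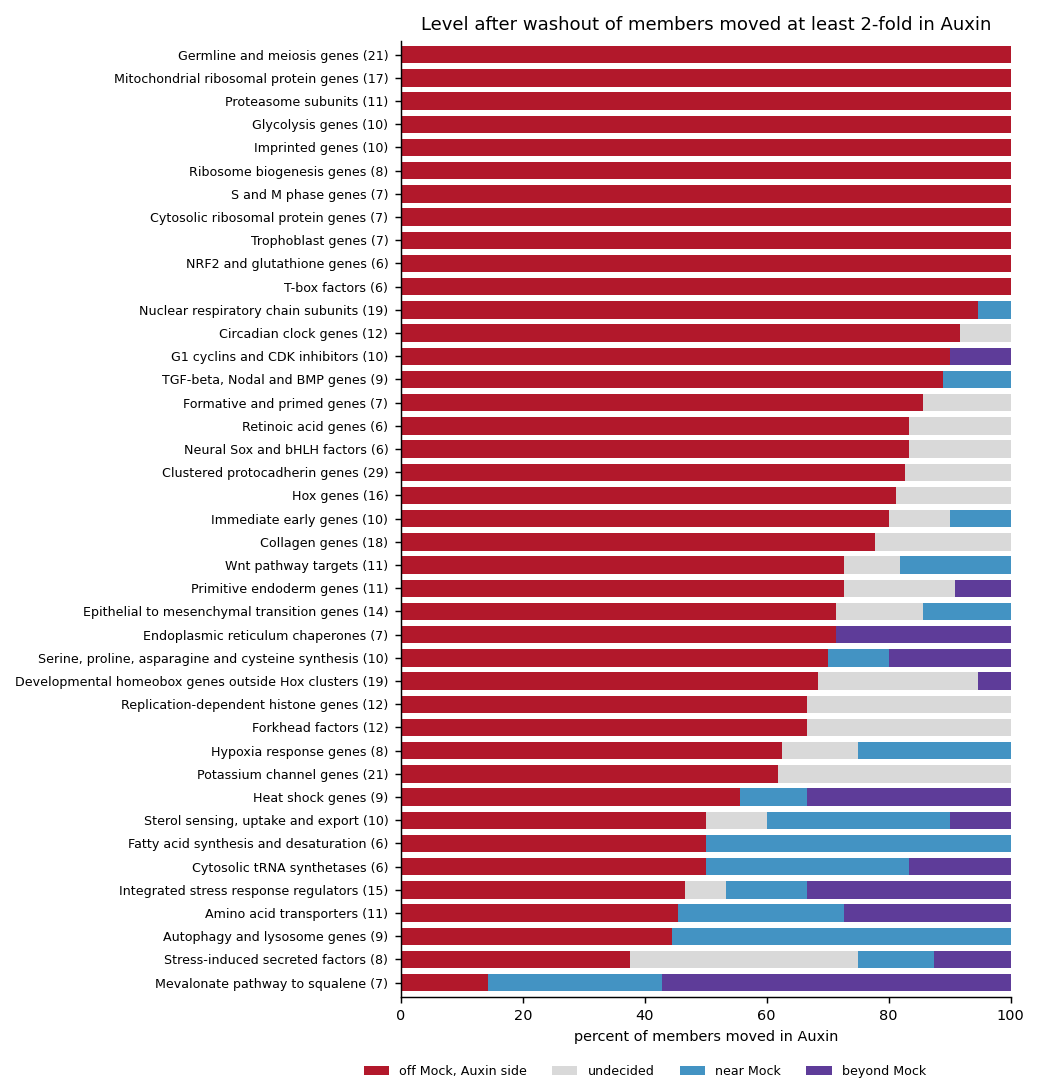
For each list with at least 6 members moved 2-fold or more in Auxin (y axis, their number in parentheses), the percent of those members (x axis) that were off, undecided, near or beyond Mock after washout. All moved germline members are off, while in the mevalonate list 1 of 7 is off, 2 are near and 4 are beyond Mock.

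Of the 296 genes near Mock, 40 belong to any of the 59 lists, which hold 1288 of the 20838 genes tested. Sterol and fatty acid lists together had 57 genes tested and 28 moved, of which 11 (39.3%) were near Mock, 10 (35.7%) off and 6 (21.4%) beyond; the share near Mock among all moved genes was 4.47% and beyond Mock 1.39%. The 5 lists of amino acid stress had 81 genes tested and 49 moved, with 8 (16.3%) near, 25 (51.0%) off and 12 (24.5%) beyond. Autophagy and lysosome genes had 5 of 9 moved members near Mock and 4 off. These lists were chosen with earlier results known, and the shares are not tests.

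Among genes that reached 5 CPM in a group, the 5 with the largest moves in Auxin that had come down to Mock were Gdf15, Gm43314, Jdp2, Scara5 and Gpt2. Gdf15 had 1.48, 1.29 and 1.41 CPM in the Mock libraries, 17.9, 18.1 and 17.5 in the Auxin libraries and 1.46, 1.6 and 1.29 in the Reintroduction libraries. Gdf15, a hormone secreted by stressed cells, thus had overlapping Mock and Reintroduction libraries, with a difference of 0.04 (95% interval -0.19 to 0.27; Reintroduction against Auxin -3.64, edgeR adjusted p = 6.49e-10). With trends removed its difference from Mock was 0.45 and was called. Gpt2 had 25.5, 26.3 and 26.7 CPM in the Mock libraries, 181, 192 and 173 in the Auxin libraries and 21.3, 19.7 and 21.5 in the Reintroduction libraries. Gpt2, which makes alanine from pyruvate, had all 3 Reintroduction libraries slightly below Mock (log2 -0.33, edgeR adjusted p = 4.33e-04) after a log2 change of -3.13 from Auxin. Jdp2, a bZIP repressor, and the scavenger receptor gene Scara5 were -0.20 and -0.20 from Mock on the log2 scale, with 22.8, 24 and 23.5 CPM in Auxin and 2.58, 2.38 and 2.88 in Reintroduction for Jdp2. Gm43314 differed by 0.08 with a wide interval of -0.33 to 0.48.

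Under the same limit, the 5 with the largest moves that had come back up were Vim, Insig1, Gm5873, Gm3571 and Dhcr7. Vim had 191, 175 and 174 CPM in the Mock libraries, 31.6, 35.1 and 31.7 in the Auxin libraries and 137, 146 and 139 in the Reintroduction libraries. Vim, the intermediate filament vimentin, had returned to near Mock (log2 -0.36, edgeR adjusted p = 3.00e-04; Reintroduction against Auxin 2.10). Insig1 had 101, 100.3 and 98.6 CPM in the Mock libraries, 20.5, 22.3 and 20.6 in the Auxin libraries and 130.2, 128 and 132 in the Reintroduction libraries. Insig1, which holds back SREBP when sterol is plentiful, was above all Mock libraries by 0.38 (edgeR adjusted p = 4.61e-05). With trends removed its difference was 0.54, past the margin of 0.5. Gm5873 and Gm3571 were at -0.06 and -0.07 against Mock, and with trends removed at 0.48 and 0.45, where both are called higher. A gene near Mock can still be called: 126 of the 296 were. With length and GC trends removed more were called. Of the 128 that had been lower in Auxin, 55 were then called higher than Mock and 36 lower. Of the 168 that had been higher in Auxin, 91 were called higher than Mock and 20 lower.

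Sterol synthesis turned from below to above Mock. Genes of the mevalonate pathway, which builds squalene from acetyl-CoA, had 6 of 10 members higher and 1 lower (median 0.31, 0.43 with trends removed). Their median in Auxin was -1.48. The enzymes after squalene had 6 of 11 higher and 4 lower (median 0.54, 0.23 with trends removed), against -0.99 in Auxin. With trends removed the median of all tested genes was 0.16. Hmgcs1 had 287, 292 and 292 CPM in the Mock libraries, 116, 110.4 and 115 in the Auxin libraries and 627, 682 and 663 in the Reintroduction libraries. Hmgcs1 (ENSMUSG00000093930.1; mm10 chromosome 13, 119690462 to 119708086), the synthase that makes HMG-CoA, was therefore below Mock in every Auxin library and 2.26-fold above it in Reintroduction (log2 1.18, SE 0.051, edgeR adjusted p = 1.59e-08; 1.14 with trends removed). Its promoter is shown because it was the only one of 7 mevalonate genes with an entry that holds the sterol regulatory element TCACNCCAC. Both strands were searched in 300 bases around the RefSeq start. The element is in 1.5% of the 12294 tested genes with an entry and in 1.44% of all 27025 promoters. It was in 0 of 9 post-squalene, 0 of 13 sterol uptake and sensing and 1 of 14 fatty acid promoters. Lists outside sterol metabolism held it too, such as glycolysis genes with 2 of 19. The 250 bases before the start (GRCm38.p6, which is mm10; chr13:119690101-119690350, plus strand), with the match, 137 bases before the start, in capitals, read 5′ to 3′:
Hmgcs1: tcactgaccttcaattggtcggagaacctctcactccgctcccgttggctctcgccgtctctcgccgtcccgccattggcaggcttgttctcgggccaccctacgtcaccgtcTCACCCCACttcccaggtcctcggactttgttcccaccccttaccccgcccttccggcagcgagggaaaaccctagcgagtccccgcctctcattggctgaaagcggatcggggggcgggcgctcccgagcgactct

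Other members of the pathway followed Hmgcs1 to different distances. Idi1, the isomerase of the isoprene unit, had 106, 108 and 108 CPM in Mock, then 19.7, 18.6 and 20.0 in Auxin and then 145, 148 and 142 in Reintroduction, beyond Mock by 0.44. Fdps and Fdft1, which build farnesyl diphosphate and squalene, were beyond Mock by 0.56 and 0.35, and both share exon sequence with another gene. Mvd and Pmvk were near Mock at 0.04 and 0.03, Mvk differed by 0.02 without a call, and Acat2 alone stayed lower, at -0.41. Past squalene, Cyp51, the sterol demethylase, was beyond Mock by 0.82 (edgeR adjusted p = 7.00e-07) and Sqle, squalene epoxidase, was higher by 0.84. Hsd17b7 had 29.7, 32.1 and 31.6 CPM in the Mock libraries, 29.1, 27.5 and 27.3 in the Auxin libraries and 62.8, 68 and 70.1 in the Reintroduction libraries. Hsd17b7 was 2.15-fold above Mock (edgeR adjusted p = 7.20e-08) without a 2-fold move in Auxin, and Msmo1 1.88-fold above it. Dhcr7 and Nsdhl, which act late in the pathway, were near Mock at -0.28 and 0.08, and Tm7sf2 and Ebp stayed lower at -0.76 and -0.52.

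Sterol uptake and sensing genes were higher in 13 of 19 and lower in 4 (median 0.36, 0.32 with trends removed). Stard4, a sterol carrier, was 2.18-fold above Mock, and the exporter gene Abca1 stayed higher by 1.24. Fatty acid genes were higher in 10 of 17 and lower in 5 (median 0.31, 0.41 with trends removed), with Me1 and Acss2 higher by 1.25 and 1.09. Scd2, Fasn and Fads2, all lower in Auxin by at least 1 log2 unit, were near Mock at 0.12, -0.37 and 0.30.

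**Figure D5:**
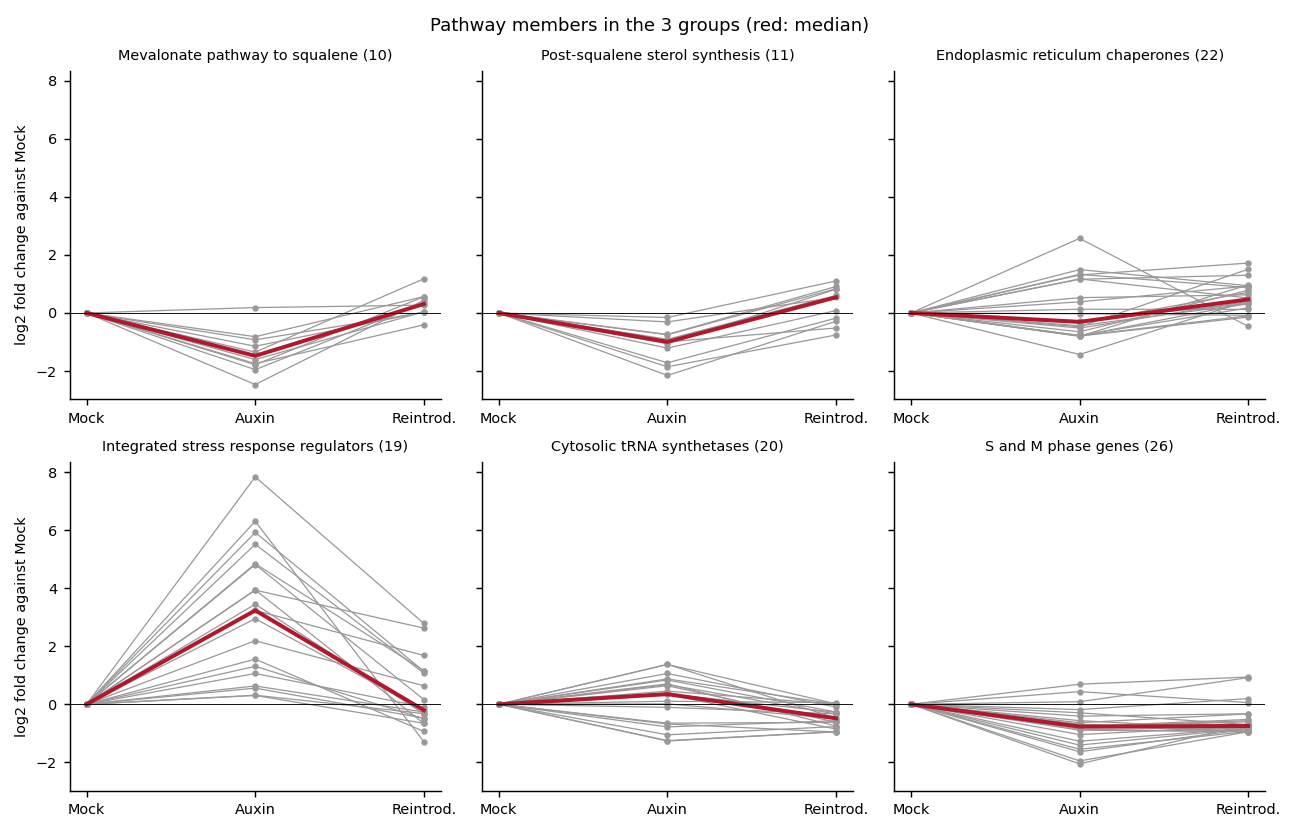
Log2 fold change against Mock (y axis) of each tested member (grey) of 6 lists in Mock, Auxin and Reintroduction (x axis), with the list median in red. The medians of the 2 sterol lists cross from below to above 0, ER chaperones rise above 0, stress regulators fall from 3.23 to -0.20, tRNA synthetases fall below 0, and S and M phase genes have a median of -0.77 in Auxin and -0.75 in Reintroduction.

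ER chaperones lay above Mock. Of 22 tested, 17 were higher and 1 lower (median 0.47, 0.61 with trends removed), against a median of -0.31 in Auxin. Hspa5 had 833, 794 and 802 CPM in the Mock libraries, 470.4, 471 and 452 in the Auxin libraries and 1604, 1544 and 1606 in the Reintroduction libraries. Hspa5 (ENSMUSG00000026864.13; mm10 chromosome 2, 34771970 to 34777547), the ER chaperone BiP, was below Mock in every Auxin library and 1.96-fold above it in Reintroduction (log2 0.97, SE 0.050, edgeR adjusted p = 4.88e-08; 0.94 with trends removed). Its promoter carries the ER stress response element (CCAAT, then CCACG after 9 bases, on either strand), which 9 of the 19 list members with an entry hold (47.4%), against 0.179% of tested genes and 0.137% of all promoters. A match is a description of letters and not a measured binding site. The 250 bases before the RefSeq start (GRCm38.p6; chr2:34771840-34772089, plus strand), with the match, 65 bases before the start, in capitals, read 5′ to 3′:
Hspa5: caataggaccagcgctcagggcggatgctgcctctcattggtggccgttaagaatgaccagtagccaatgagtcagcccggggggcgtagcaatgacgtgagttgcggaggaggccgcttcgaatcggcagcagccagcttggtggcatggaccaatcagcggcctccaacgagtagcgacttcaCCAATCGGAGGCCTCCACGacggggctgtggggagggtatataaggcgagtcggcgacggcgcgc

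Among the other ER genes, Xbp1, the transcription factor of this response, was 2.46-fold above Mock and close to its Auxin level (log2 0.14 between them, adjusted p = 0.0944). Hsp90b1, the ER form of Hsp90, was higher by 0.78 after a fall in Auxin (-0.65), Derl3, which takes part in removal of misfolded proteins, by 1.51 and the co-chaperone gene Dnajc3 by 1.72. Manf, a secreted ER protein, was beyond Mock from below (-1.43 in Auxin, 0.42 in Reintroduction). Herpud1, which also answers to ATF4, was beyond Mock from above, from 60.7, 67.5 and 58.9 CPM in Auxin to 7.34, 7.71 and 7.84 in Reintroduction against 10.9, 10.3 and 10.3 in Mock, and is the 1 member called lower.

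Heat shock genes were higher in 11 of 21 and lower in 7 (median 0.24, 0.13 with trends removed), against -0.73 in Auxin. With trends removed 9 were higher and 8 lower, and the median of all tested genes was 0.16. Hspa1b had 12.1, 12 and 12.1 CPM in the Mock libraries, 2.54, 2.51 and 2.76 in the Auxin libraries and 24, 24.5 and 26.8 in the Reintroduction libraries. Hspa1b (ENSMUSG00000090877.3; mm10 chromosome 17, 34956436 to 34959238), an inducible Hsp70, was beyond Mock by 2.08-fold (log2 1.06, SE 0.064, edgeR adjusted p = 1.52e-07), and its near-identical copy Hspa1a by 1.03, where reads that fit both copies cannot be told apart. Hspa8, the constitutive Hsp70, was beyond Mock by 0.43. Hspa4l had 2.81, 2.85 and 2.76 CPM in the Mock libraries, 16.1, 12.5 and 15.8 in the Auxin libraries and 27.2, 25.6 and 23.7 in the Reintroduction libraries. Hspa4l, a co-chaperone of Hsp70, was 9.08-fold above Mock (log2 3.18, 2.33 with trends removed) and above its Auxin level. Dnaja1 was near Mock at 0.10, while Hspd1 and Stip1 stayed lower at -0.39 and -0.44. The heat shock element (TTC, GAA and TTC, each 2 bases apart, on either strand) was found in 4 of 15 promoters of the list (26.7%), Hsph1, Hspd1, Chordc1 and Hspe1, against 0.545% of tested genes.

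The integrated stress response had fallen from its Auxin level. Its regulators went from a median of 3.23 in Auxin to -0.20 in Reintroduction, with 7 of 19 higher and 8 lower; the sign of that median turned (0.09) with trends removed. Of 15 moved members, 7 were off, 5 beyond, 2 near and 1 undecided. Chac1 had 0.99, 0.724 and 0.699 CPM in the Mock libraries, 60.3, 73.3 and 60.4 in the Auxin libraries and 0.439, 0.245 and 0.282 in the Reintroduction libraries. Chac1 (ENSMUSG00000027313.3; mm10 chromosome 2, 119351229 to 119354381), which breaks down glutathione, was above Mock in every Auxin library and 2.44-fold below it in Reintroduction (log2 -1.29, SE 0.24, edgeR adjusted p = 5.57e-04; -0.81 with trends removed), at under 1 CPM in both groups. The C/EBP-ATF element TGATGNAA was in the promoters of 6 of 17 regulators (35.3%), 5 of 12 cytosolic tRNA synthetases (41.7%) and 4 of 14 amino acid synthesis genes (28.6%), against 2.89% of tested genes and 4.51% of all promoters. Chac1 is shown as the one of the 5 members beyond Mock with the largest difference. The 250 bases before its RefSeq start (GRCm38.p6; chr2:119350992-119351241, plus strand), with the match, which lies on the opposite strand 193 bases before the start, in capitals, read 5′ to 3′:
Chac1: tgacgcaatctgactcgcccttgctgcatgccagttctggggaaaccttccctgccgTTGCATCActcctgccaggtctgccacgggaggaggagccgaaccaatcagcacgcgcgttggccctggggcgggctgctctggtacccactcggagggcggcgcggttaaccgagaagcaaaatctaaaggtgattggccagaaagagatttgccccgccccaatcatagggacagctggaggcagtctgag

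Its members stood on both sides of Mock. Atf4, its central transcription factor, had 255, 232 and 237 CPM in Mock, then 564, 675 and 554 in Auxin and then 172, 169 and 173 in Reintroduction (log2 -0.50, edgeR adjusted p = 1.44e-04), a call that is lost with trends removed (-0.03). Trib3, an inhibitor of kinases, was beyond Mock at -0.66, Sesn2, a brake on mTORC1, at -0.94, and Ddit3, the factor CHOP, at -0.33 (-0.07 and not called with trends removed). Atf5 had 24.9, 22.3 and 23.7 CPM in the Mock libraries, 345, 405 and 332 in the Auxin libraries and 146, 143 and 148 in the Reintroduction libraries. Atf5, a related factor, was off and 6.16-fold above Mock (log2 2.62, SE 0.080, edgeR adjusted p = 2.19e-09), as were Gadd45a (3.21-fold), Cebpb (1.16 on the log2 scale) and Vldlr, a lipoprotein receptor gene (2.78). Of 8 stress-induced secreted factors all had moved in Auxin, with 3 off, 3 undecided, Gdf15 near and Angptl6 beyond Mock; Angptl4, a lipase inhibitor, had been lowered by Auxin and stayed lower at -1.30.

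Genes of amino acid supply were divided as well. Synthesis enzymes were higher in 6 of 17 and lower in 9 (median -0.33, -0.04 with trends removed). Mthfd2 and Aldh18a1, of mitochondrial folate metabolism and of proline synthesis, were beyond Mock at -0.77 and -0.48; Aldh1l2 was off and higher by 3.09, and Shmt1 off and lower at -1.06. Transporters were higher in 6 of 18 and lower in 8. Slc1a4 had 5.53, 5.46 and 5.54 CPM in the Mock libraries, 41.6, 47.4 and 42.6 in the Auxin libraries and 2.79, 2.38 and 2.79 in the Reintroduction libraries. Slc1a4, a carrier of serine and other neutral amino acids, was beyond Mock and 2.06-fold below it (log2 -1.04, SE 0.082, edgeR adjusted p = 9.99e-07), Slc7a5 and Slc3a2, the parts of one leucine carrier, were beyond Mock at -0.50 and -0.37, and the glutamine carrier gene Slc1a5 was near Mock at -0.05. Slc7a8 and Slc36a4 stayed higher by 2.67 and 2.23.

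Cytosolic tRNA synthetases were lower in 15 of 20 and higher in 0 (median -0.48, -0.45 with trends removed), against a median of 0.35 in Auxin. At an unadjusted p under 0.05 in edgeR 0 were higher, as with DESeq2. Vars and Qars, for valine and glutamine, were lower at -0.95 and -0.95, and both had been lower in Auxin. Cars, for cysteine, went from 157, 178 and 154 CPM in Auxin to 45.5, 44.5 and 45.5 against 64.2, 62 and 62.4 in Mock and was beyond it, and Nars and Sars, for asparagine and serine, were near Mock at -0.10 and 0.01. Mitochondrial tRNA synthetases were lower in 12 of 17 and higher in 3, with Sars2 lower at -0.75.

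Other stress lists stood between these. Of 21 autophagy and lysosome genes 8 were higher and 7 lower; Lamp1 and Lamp2, membrane proteins of the lysosome, were near Mock at -0.03 and -0.14, and the cargo receptor gene Sqstm1 and the autophagosome gene Wipi1 were off at 0.81 and 1.47. NRF2 and glutathione genes were higher in 8 of 24 and lower in 13. Gclc, which makes the glutathione precursor, was higher by 0.72 and transketolase, Tkt, lower at -0.94. All 6 moved members of that list were off, against 79.1% of all moved genes. Targets of p53 were higher in 9 of 21 and lower in 7, with the cell death genes Pmaip1 and Perp higher by 1.64 and 1.44. The list medians of these 3 groups changed sign under at least 1 alternative.

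Among genes whose mean reached 5 CPM in a group, the 5 with the largest distance above Mock after being lower in Auxin were Edn1, Fgfbp1, Hmgcs1, Nexmif and Hspa1b. Fgfbp1 had 17.7, 17.6 and 16.3 CPM in the Mock libraries, 6.12, 7.39 and 6.5 in the Auxin libraries and 52.8, 53.5 and 61.3 in the Reintroduction libraries. Fgfbp1, a carrier of fibroblast growth factors, was 3.24-fold above Mock (log2 1.70, SE 0.083, edgeR adjusted p = 3.26e-08). Edn1 had 1.87, 1.41 and 1.76 CPM in the Mock libraries, 0.695, 0.813 and 0.584 in the Auxin libraries and 5.29, 6.64 and 5.58 in the Reintroduction libraries. Edn1, the peptide endothelin, was 3.44-fold above Mock (log2 1.78, edgeR adjusted p = 1.25e-06). Nexmif, a long neuronal gene, was higher by 1.13, which became 0.41 with trends removed. Under the same limit, the 5 furthest below Mock after being higher in Auxin were Chac1, Hspb6, Arhgef10l, Slc1a4 and Neil2. Arhgef10l had 29.4, 25.8 and 26.5 CPM in the Mock libraries, 55.1, 58.7 and 51 in the Auxin libraries and 11.8, 12.2 and 11.2 in the Reintroduction libraries. Arhgef10l, which encodes a guanine nucleotide exchange factor, was 2.33-fold below Mock (log2 -1.22, SE 0.073, edgeR adjusted p = 1.33e-07), the small heat shock protein gene Hspb6 2.4-fold and the DNA glycosylase gene Neil2 2.04-fold. Of all 92 genes beyond Mock, 26 belong to at least 1 of the 59 lists.

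Reads were counted without strand, so overlapping genes have uncertain values where an exon belongs to both. Among the genes with values above these include Hhip, Nr2f2, Apol6, Kmt2c, Gbx2, Tbx18, Tfap2a, Sycp3, Sox21, Pou5f1, Lin28a, Esrp1, Bhlhe40, Ccnd1, Atf5, Cebpb, Gadd45a, Aldh1l2, Shmt1, Cyp51, Tm7sf2, Me1, Acss2, Scd2, Hsp90b1, Manf, Hspa8, Hspd1 and Hspb6. So do Kcnt2, Col5a1, Mrpl24, Rpl13a, Psmd13, Pfkm, Sqstm1, Tkt, Pim1, Spred3, Snhg12, Hist1h2af, mt-Nd5 and mt-Nd4l, and the list is not complete. Hmgcs1, Hspa5, Hspa1b, Chac1, Slc1a4, Fgfbp1, Edn1, Meis2, Taf7l, Parm1, Lefty1 and Pou2f3 share none.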

How the data were processed

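RNA was selected for polyadenylated transcripts, reverse-transcribed with random primers and sequenced as 75 bp paired-end reads, per the labels. The deposited values are raw counts per gene over exons, which the authors made with featureCounts 2.0.6 on mm10, per the file headers; no strand or pair-counting setting is recorded there, so each mate is a count. Trim Galore 0.6.10, FastQC 0.12.1, Bowtie2 2.5.3 and SAMtools 1.20 are named in the submitters' processing notes.

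From these counts, all 9 libraries were fitted together with edgeR 4.0.16 (R 4.3.3; quasi-likelihood test, filterByExpr, TMM scaling, Benjamini-Hochberg over 20838 genes, called at an adjusted p under 0.05). The common biological coefficient of variation was 9.15% and the median SE of a log2 change 0.107, at 44341283 to 113931419 counts per library. On data simulated for Reintroduction against Mock (20495 genes), 72.5% of 200 genes changed 2-fold were recovered and 4.6% of calls were false. Those data had no length trend and as many rises as falls. Far fewer genes changed in them than the 68.1% called here, so these shares do not carry over to the real comparison. Length and GC trends were removed through per-library offsets. Gene names and exon lengths come from the files, GC content (99.2% of genes) from GENCODE M21 and promoters from RefSeq on GRCm38.p6. Alternatives used other scaling, filters, fold and margin thresholds, DESeq2 1.42.0, a replicate block, halved counts and each library left out.

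Members and lists were chosen with earlier results of these data known. Genes were named by rule: the 6 largest rises and falls with no overlap and at least 5 CPM, the 2 called members of each list with the smallest p, every PRC2 subunit, and the 5 leading genes near and beyond Mock in each direction. Other named genes were chosen after their values were seen. Some genes that the rule names are not reported here.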

Additional observations from a re-analysis of the deposited data

How the results depend on the processing

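The number of genes called ranged from 12248 to 14740 over the alternatives in scaling, filter, test, trend and samples fitted, against 14191, and from 13106 to 13465 with a Mock or Reintroduction library left out. With 2-fold required it was 4664 (3116 higher, 1548 lower). Leaving out an Auxin library, added after seeing the data, gave 14131 to 15313. A DESeq2 Wald test called 14044. The states depend on their thresholds. With a margin of 0.3, 94 genes were near Mock. A margin of 1 gave 1490 near and 51 beyond. Counting every called gene as moved gave 3632 near, 9683 off and 433 beyond, and a 4-fold move gave 24, 1738 and 20. The 11 lists with a median of -0.4 or less became 3 with total counts, 7 with a filter of at least 1 CPM, 6 with the length trend removed and 4 with length and GC trends removed; the cause was not tested beyond these settings.

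Same-numbered replicates did not pair: their deviations correlated at 0.048, 0.168 and -0.149. With the replicate number as a block, 13639 genes were called (6916 higher, 6723 lower) with 279 near, 5115 off and 90 beyond.

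Named genes close to 0 changed sign. With total counts, Gm5873 was at 0.073, Gm3571 at 0.062 and Phf1 at 0.123. Phf1 was at 0.013 with the 1 CPM filter, 0.004 with 2 groups fitted and 0.004 with halved counts. With the length trend removed, Gm5873 was at 0.423, Gm3571 at 0.389, Ezh1 at -0.125, Jdp2 at 0.119 and Phf1 at 0.232. With length and GC trends removed, Gm5873 was at 0.481, Gm3571 at 0.449, Mtf2 at -0.347, Jdp2 at 0.241 and Phf1 at 0.354. With a Mock or Reintroduction library left out, Gm5873 ran from -0.141 to 0.001, Gdf15 from -0.038 to 0.101, Gm43314 from -0.067 to 0.243 and Phf1 from -0.159 to 0.09. The cause was not tested. Of the other values of named genes under the alternatives, 2798 kept direction and side of the threshold, 20 lost the call and 7 gained it. States were not run with the DESeq2 Wald test or with 2 groups fitted.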
